A study of Mus musculus with 12 samples.

Results

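The genes described here carry the symbols of the nuclear genes that encode subunits of the mitochondrial respiratory chain and of ATP synthase. They were taken from the expression table by symbol, as complex I (Nduf followed by a, b, c, s or v and a number), complex II (Sdha to Sdhd), complex III (Uqcr and Cyc1), cytochrome c (Cycs), complex IV (Cox4 to Cox8) and complex V (Atp5). Of 55487 genes in the table, 91 met this rule: 40 of complex I, 4 of complex II, 9 of complex III, 1 for cytochrome c, 19 of complex IV and 18 of complex V. A further 13 names that contain -ps were left out. The rule goes by symbol, and 4 of the 91 (Cox6c2, Ndufa11b, Ndufb4c and Ndufs6b) are annotated as processed pseudogenes and the other 87 as protein coding. Values are TPM, a transcript level corrected for transcript length and scaled to the same total in each library.

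RNA came from mouse 3T3-L1 fibroblasts, which can turn into fat cells in culture, infected with lentivirus that carries a short hairpin RNA and a puromycin resistance gene and then selected with puromycin. One line carried a scramble hairpin (shScram) and the other a hairpin against Fto (shFto), the gene of an RNA demethylase. Which of the Fto hairpins was sequenced is not named in the sources used here. Each line was sampled as preadipocytes, at the stage of mitotic clonal expansion (MCE stage) after a medium with IBMX, dexamethasone and insulin (MDI), and at the differentiation stage after further culture with insulin. There were 2 libraries in each of 6 groups, 12 in all, made from fragmented total RNA that served as input of an m6A immunoprecipitation. For shScram replicate 1 of the differentiation stage, the title (scramble) and the treatment entry (Fto knockdown) disagree, and the library was grouped by its title.

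The respiratory chain passes electrons from NADH through complex I, and from succinate through complex II, to complex III, and cytochrome c carries them on to complex IV, which reduces oxygen. Complexes I, III and IV pump protons across the inner mitochondrial membrane, and complex V uses their return to make ATP. All complexes but complex II combine subunits from both genomes, and fat cells gain mitochondria as they mature.

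Fto stood at 0.0996, 0.108 and 0.101 of the shScram mean at the 3 stages in order. Markers of fat cells were far lower in shFto at the differentiation stage, where Adipoq stood at 6.05 and 3.66 TPM against 77.2 and 72.4 TPM in shScram, and 6 of 7 adipocyte markers were called lower. The summed level of these 7 markers was 1535 to 1551 TPM in shScram and 425 to 459 TPM in shFto at that stage. In bulk RNA, fewer fat cells and less RNA per fat cell cannot be told apart. As a sum, markers of fibroblasts or preadipocytes moved the other way, with 6956 and 6588 TPM in shScram against 8974 and 9391 TPM in shFto at that stage. Earlier, at the MCE stage, they summed to 3973 and 3595 TPM against 5715 and 5240.4 TPM. Col1a1, Col3a1, Pdgfra and Thy1 were higher in shFto at both stages, but Col1a2 was lower at both. Dlk1 was lower at the MCE stage, at 484 and 431 TPM in shFto against 1182 and 1106 TPM in shScram. Of the macrophage and endothelial markers, Adgre1 and Kdr were listed at 0 in all 12 libraries, while Cd68 was at 0.457 to 3.04 TPM, Csf1r at 0.0582 to 1.40 TPM and Pecam1 at 0.0845 to 0.495 TPM. Among the libraries, shScram preadipocyte replicate 1 was the most distant. Its correlation with replicate 2 over tested genes was 0.939 against 0.990 to 0.993 in the other 5 groups, and over the members 0.850 against 0.983 to 0.997. Mitochondrially encoded RNA took 14.5% of its TPM and 4.58% to 9.17% of the others. Every comparison below shares 1 estimate of the spread across the 12 libraries, so the main counts are given with and without this library. Where nothing says that replicates came from separate cultures, the p-values measure only the spread between these libraries.

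Promoters (250 bases before to 50 after the start site) were found in RefSeq, build GRCm38.p6, for 69 of 90 member symbols. Of 4 motifs searched as exact letters on both strands, GCGCATGCG, a site of the regulator NRF1, was in the promoters of 9 of these 69 genes (13%) against 1.95% of the 27025 symbols with a promoter. CCGGAAG, an ETS-family site that GABP can bind, was in 17 (24.6%) against 9.93%. AAGATGGCG, a YY1 site, was in 7 (10.1%) against 1.64%, and CAAGGTCA, a site of the ERR receptors, was in 4 (5.80%) against 1.76%. None of these letters contain each other, and 30 of the 69 genes held at least 1 motif. The promoters of 4 members are shown because each belongs to a different step of the chain and together they hold all 4 motifs. They are Cycs (chr6:50566520-50566819, minus strand), Cox6a1 (chr5:115348909-115349208, minus strand), Atp5j2 (chr5:145191492-145191791, minus strand) and Sdhd (chr9:50603800-50604099, minus strand). Each is written from 5′ to 3′ with the motif in capitals, which mark NRF1 in Cycs, NRF1 on both strands and then ETS in Cox6a1, YY1 in Atp5j2, and ETS and then ERR in Sdhd.
Cycs: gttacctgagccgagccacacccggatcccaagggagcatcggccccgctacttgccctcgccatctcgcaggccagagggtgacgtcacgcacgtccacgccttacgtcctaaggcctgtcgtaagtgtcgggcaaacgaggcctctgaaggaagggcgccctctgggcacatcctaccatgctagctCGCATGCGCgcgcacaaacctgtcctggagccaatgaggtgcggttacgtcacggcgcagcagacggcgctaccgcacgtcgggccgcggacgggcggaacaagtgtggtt
Cox6a1: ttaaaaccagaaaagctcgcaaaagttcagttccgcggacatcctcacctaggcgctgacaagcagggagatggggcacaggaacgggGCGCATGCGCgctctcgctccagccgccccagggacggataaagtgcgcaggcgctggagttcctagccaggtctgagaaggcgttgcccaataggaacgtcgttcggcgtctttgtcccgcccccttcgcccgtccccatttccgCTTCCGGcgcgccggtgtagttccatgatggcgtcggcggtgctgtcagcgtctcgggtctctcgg
Atp5j2: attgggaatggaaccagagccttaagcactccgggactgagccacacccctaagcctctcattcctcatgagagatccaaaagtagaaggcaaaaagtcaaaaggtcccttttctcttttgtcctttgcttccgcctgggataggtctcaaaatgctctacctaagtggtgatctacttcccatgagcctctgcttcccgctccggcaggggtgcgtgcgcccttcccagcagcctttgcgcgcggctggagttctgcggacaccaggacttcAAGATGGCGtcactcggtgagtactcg
Sdhd: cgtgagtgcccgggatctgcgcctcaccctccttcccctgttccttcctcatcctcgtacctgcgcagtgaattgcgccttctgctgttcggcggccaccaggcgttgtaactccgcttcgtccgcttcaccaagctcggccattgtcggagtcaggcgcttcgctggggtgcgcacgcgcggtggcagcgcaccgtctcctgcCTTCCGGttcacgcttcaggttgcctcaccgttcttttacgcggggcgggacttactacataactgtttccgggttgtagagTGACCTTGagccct
A match describes the letters only. The NRF1 match of Cycs began at position -61 from the start site and the YY1 match of Atp5j2 at position 23 after it, counted from 0 at the start site.

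The 91 members spanned a wide range of levels. By the mean over 12 libraries, 4 genes were above 500 TPM, 58 lay between 100 and 500 TPM, 17 between 5 and 100 TPM, 2 between 1 and 5 TPM, 8 below 1 TPM, and 2 were listed at 0 throughout. The 4 highest were Atp5b, the catalytic beta subunit of ATP synthase, at 803 TPM, Cox4i1 at 688 TPM, Cox6a1 at 685 TPM and Cox8a at 616 TPM. Within the other complexes Ndufa4 led complex I at 439 TPM, Sdha led complex II at 135 TPM, and Uqcrh led complex III at 291 TPM. The median gene of complex V stood at 262 TPM, of complex IV at 216 TPM, of complex III at 199 TPM, and of complexes I and II at 117 TPM, counting genes that passed the filter. The filter asked for 1 TPM or more in at least 2 libraries, and 82 members passed it: 38 of complex I, all of complexes II and III and Cycs, 13 of complex IV and 17 of complex V.

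The members that did not pass were mostly paralogues of other members. Cox4i2, Cox6b2, Cox6c2, Cox7b2, Cox8b and Cox8c of complex IV, Ndufa11b and Ndufs6b of complex I, and a second entry under the symbol Atp5o were below it. Cox8c and that second Atp5o entry were at 0. Cox7a1 was tested but had a mean of only 0.735 TPM against 154 TPM for Cox7a2, and Cox8b had 0.0685 TPM against 616 TPM for Cox8a. Cox8b and Cox7a1 are also known from brown fat. Of a list of 10 thermogenic genes, Elovl3 and Zic1 were listed at 0 in all 12 libraries, while Ucp1 and Prdm16 were above 0 in 1 library each, at 0.0423 and 0.0138 TPM. Others of that list were present, with Kcnk3 at 0.691 to 9.90 TPM, Cpt1b at 0.0715 to 3.33 TPM and Dio2 at 0.0237 to 25.1 TPM. Among the low complex IV isoforms Cox6a2, the muscle form of Cox6a, was the exception at 9.28 TPM. The map of gene values by library shows how the members varied.

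**Figure D1:**
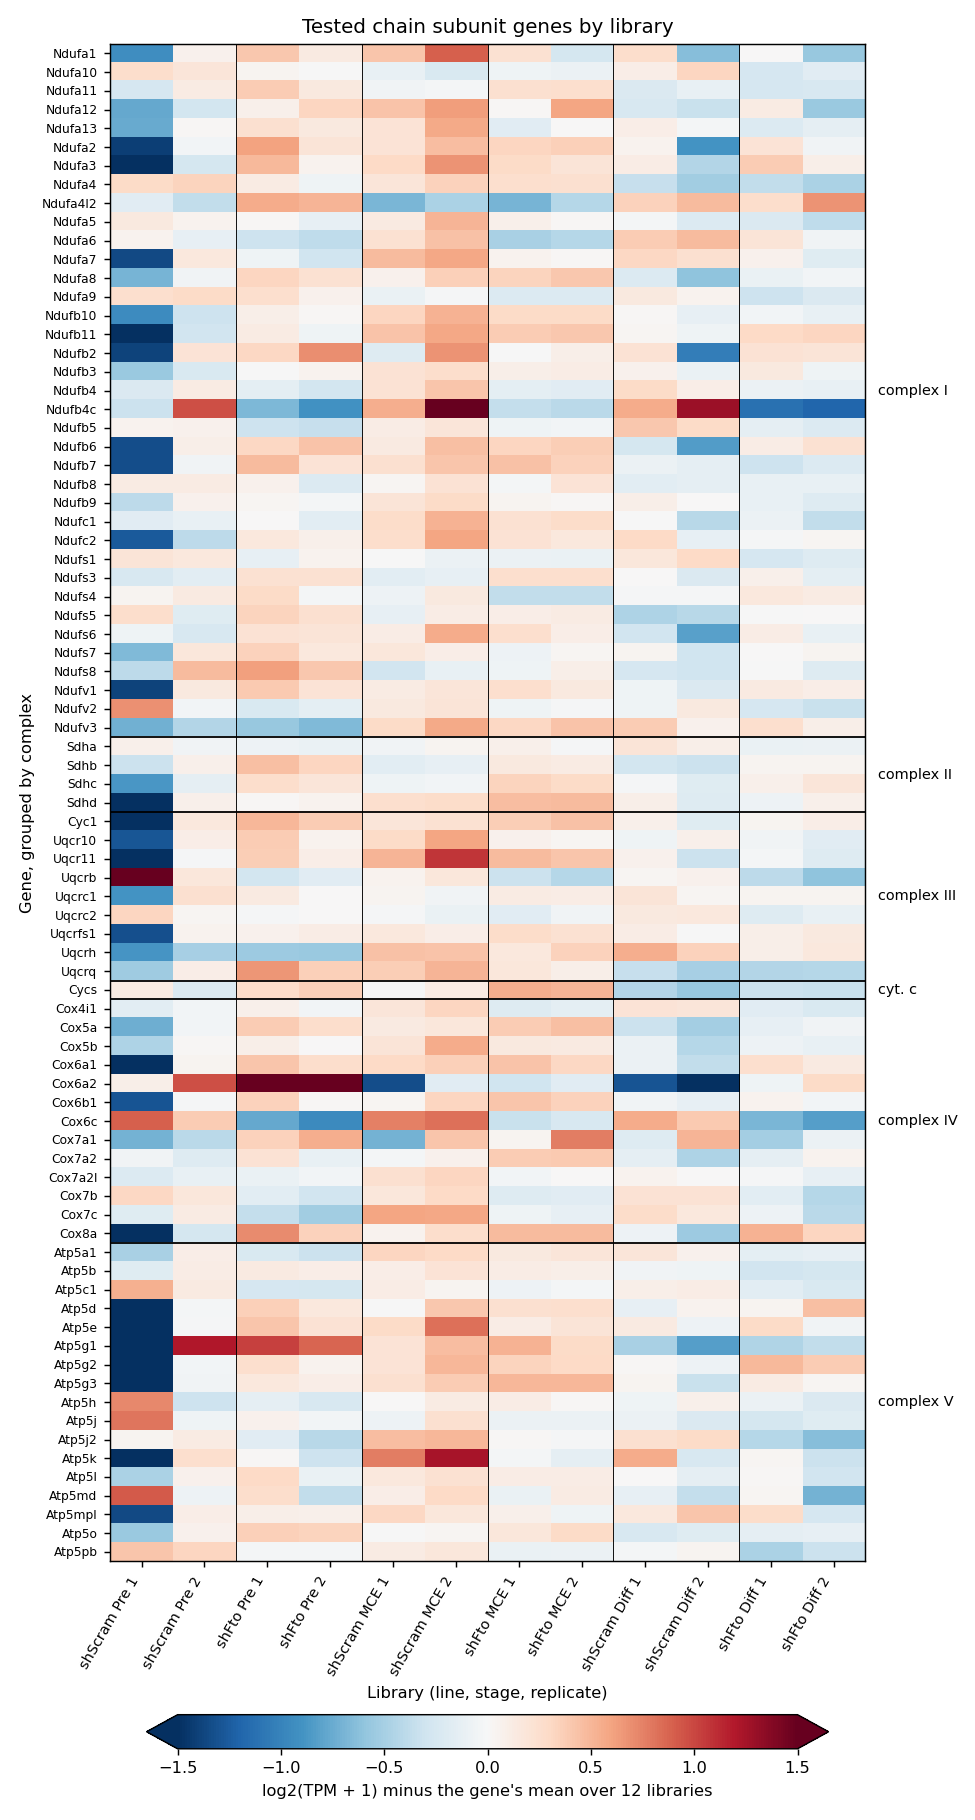
Heat map of 81 of the 82 tested genes (rows, grouped by complex) in the 12 libraries (columns, 2 per line and stage), as log2(TPM + 1) minus the gene's mean over 12 libraries, with the colour scale ending at 1.5 in either direction. Replicate 1 of the shScram preadipocytes (first column) is far from its replicate for many genes, and Cox6c is red in all shScram and blue in all shFto libraries.

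In summed level, all members together took 1.25% to 1.99% of TPM. The sum was 12491 and 15866 TPM in the 2 shScram preadipocyte libraries, 17869 and 19869 TPM at the MCE stage, then 16041 and 14672 TPM after differentiation. In shFto the sums at the same stages were 17319 and 15619 TPM, then 17164 and 17199.9 TPM, and last 15284 and 14333 TPM. At the MCE stage both shScram sums were above both shFto sums, and at the differentiation stage the lines overlapped. Complex I held 5321 and 6073 TPM in shScram against 5084 and 5149.6 TPM in shFto at the MCE stage, and complex IV held 4472 and 4859 TPM and 4167 and 4125 TPM. Complex II ran the other way, at 414 and 428 TPM in shScram against 487 and 474 TPM in shFto, with no overlap. By the mean level, 54 of the 82 tested members peaked at the MCE stage in shScram, 17 as preadipocytes and 11 at the differentiation stage. In shFto, 44 peaked at the MCE stage, 34 as preadipocytes and 4 at the differentiation stage. No share of all genes is given for these peak counts, and they can move with the scaling. The shScram preadipocyte means also include the replicate that stood apart.

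**Figure D2:**
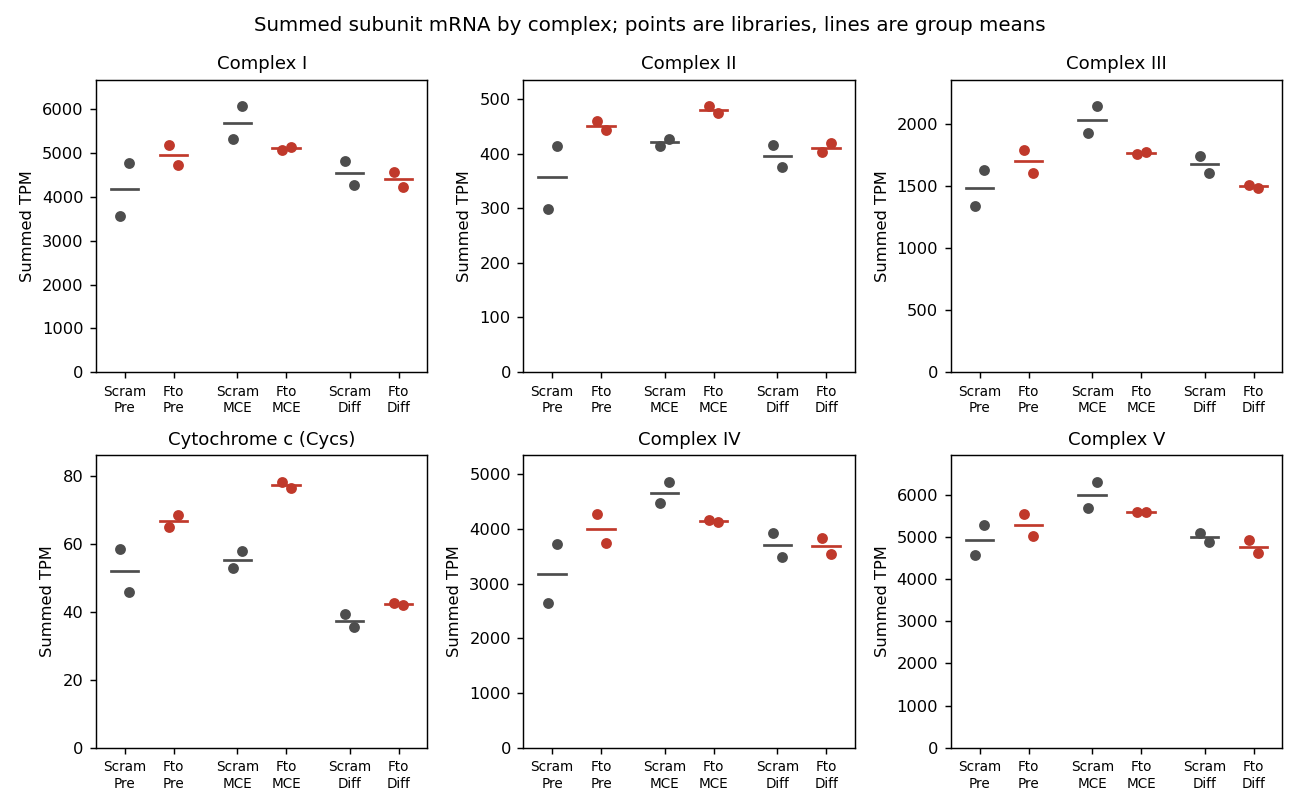
Summed TPM of the members of each complex (y axes from 0) in each library (points) by line and stage, with a line at each group mean. For complexes I, III, IV and V both shScram libraries at the MCE stage are above both at the differentiation stage, and cytochrome c (Cycs alone) is lowest at the differentiation stage in both lines.

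The first comparison asked how the members changed between preadipocytes and the MCE stage. In shScram, 24 members rose and 3 fell at an adjusted p under 0.05, where 12.2% and 26.9% of all tested genes did. Without replicate 1 of the shScram preadipocytes, 25 rose and 7 fell, against 12.9% and 35.3% of all genes. The members' median log2 difference was 0.44 with that library and 0.21 without it, beside -0.17 for all genes with it. By complex, 11 genes of complex I rose, 4 of complex III, 4 of complex IV and 5 of complex V, and none of complex II. Uqcrh, the hinge protein of complex III that binds cytochrome c1, rose from 149 and 196 TPM to 375 and 372 TPM. Its log2 difference was 1.12 ± 0.15 (SE; adjusted p = 0.0006). Ndufv3, an accessory subunit of the NADH-binding part of complex I, rose from 115 and 139 TPM to 232 and 281 TPM (log2 1.01 ± 0.16, adjusted p = 0.00151). For both genes the groups did not overlap.

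The highest changes in shScram leaned on the library that stood apart. Uqcr11, a small subunit of complex III, was at 31.9 and 175 TPM in the preadipocytes and 254 and 375 TPM at the MCE stage, a log2 difference of 2.02 ± 0.61 (adjusted p = 0.0283) that was 0.81 without the library. Atp5k, the e subunit of ATP synthase, went from 24.3 and 106 TPM to 152 and 211 TPM (log2 1.79 ± 0.56, adjusted p = 0.0328), and the call was lost without it (log2 0.75, adjusted p = 0.0583). Atp5e, the epsilon subunit, gave 1.73 ± 0.58 (adjusted p = 0.0421) and 0.58 without it. The 3 that fell were Cox6a2 (7.02 and 13.8 TPM to 2.02 and 5.71 TPM, log2 -1.28 ± 0.39, adjusted p = 0.0313), Ndufa10 (log2 -0.39 ± 0.11, adjusted p = 0.0254) and Ndufa9 (log2 -0.32 ± 0.11, adjusted p = 0.0454).

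In shFto, 3 members rose and 4 fell between the same stages, where 8.80% and 19.9% of all genes did. The median log2 difference of the members was 0.03. Without replicate 1 of the shScram preadipocytes, whose spread enters this fit, 15 rose and 8 fell, against 15.8% and 35.3% of all genes. Uqcrh and Ndufv3 rose here as well, by log2 0.81 ± 0.15 (adjusted p = 0.00375) and 0.98 ± 0.16 (adjusted p = 0.00188), and Cox6c by 0.57 ± 0.17 (adjusted p = 0.0361). Cox6a2 fell from 27.9 and 26.1 TPM to 5.15 and 5.75 TPM (log2 -2.12 ± 0.39, adjusted p = 0.00389). Ndufs4, an accessory subunit needed for complex I assembly, fell from 64.5 and 51.5 TPM to 40.5 and 40.6 TPM (log2 -0.50 ± 0.13, adjusted p = 0.0221), and Ndufa9 and the low-level Ndufa4l2 also fell. Of these changes, Uqcrh, Ndufv3, Cox6a2 and Ndufa9 were called in the same direction in both lines.

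The counts between stages moved with the scaling. Scaling by the median ratio of all genes in place of the TPM total moved the all-gene median log2 difference from -0.17 to 0.01 in shScram and from -0.18 to 0.01 in shFto for the first step. For the step from the MCE to the differentiation stage it moved from 0.23 to 0.00 and from 0.17 to -0.01. Under that scaling 46 members rose and 0 fell in shScram at the first step, and 10 rose and 2 fell in shFto. At the second step 1 rose and 23 fell in shScram, and 1 rose and 17 fell in shFto. The shares of all genes called under that scaling are not given here, so these counts cannot be set beside them. The direction of the members' median was the same under both scalings at both steps in both lines.

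Between the MCE and the differentiation stage most members had a lower mean at the later stage. In shScram, 67 of 82 and in shFto 72 of 82 had a log2 difference below 0, with medians of -0.26 and -0.18 beside 0.23 and 0.17 for all genes. At an adjusted p under 0.05, 2 members rose and 6 fell in shScram, where 20.0% and 5.22% of all genes did. In shFto 3 rose and 4 fell, where 20.2% and 6.48% did. Without replicate 1 of the shScram preadipocytes the counts were 5 up and 39 down in shScram, against 38.3% and 13.7% of all genes, and 3 up and 27 down in shFto, against 34.6% and 16.4%. The means of each line come from its own libraries, but both comparisons share the same estimate of the spread. Cycs, Ndufa4 and Ndufa4l2 were called in the same direction in both.

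Cycs, the electron carrier, went in shScram from 53.0 and 57.8 TPM to 39.3 and 35.7 TPM and in shFto from 78.3 and 76.5 TPM to 42.7 and 42.1 TPM. It fell in both lines with no overlap between the stages, by log2 -0.55 ± 0.13 (adjusted p = 0.0175) in shScram and -0.85 ± 0.13 (adjusted p = 0.00217) in shFto. Its 5 annotated copies, whose reads could be shared with it, had 21.1 to 43.2 TPM together. Ndufa4, named for complex I but found with complex IV, went from 486 and 544 TPM to 338 and 299 TPM in shScram and from 512 and 506 TPM to 332 and 308 TPM in shFto. Its log2 differences of -0.69 ± 0.13 (adjusted p = 0.00493) and -0.67 ± 0.13 (adjusted p = 0.00504) were nearly equal in the 2 lines. Its paralogue Ndufa4l2, known as a hypoxia-induced gene, was at 0.308 and 0.507 TPM and then 1.67 and 1.90 TPM in shScram, and at 0.296 and 0.555 TPM and then 1.52 and 2.34 TPM in shFto. It rose in both lines (log2 0.99 ± 0.19 and 1.03 ± 0.19, adjusted p = 0.00668 and 0.00489), yet stayed far below Ndufa4.

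Other late changes were called in 1 line. In shScram Ndufs6 fell by log2 -0.88 ± 0.20 (adjusted p = 0.0147) and Uqcrq by -0.86 ± 0.20 (adjusted p = 0.0137), Cox5b and Ndufc1 fell too, and Ndufa10 rose by 0.38 ± 0.11 (adjusted p = 0.0394). In shFto Atp5j2, the f subunit of ATP synthase, fell by -0.54 ± 0.12 (adjusted p = 0.0123) and Ndufa11 fell too, while Ndufa6 rose by 0.53 ± 0.13 (adjusted p = 0.0174) and Ndufs4 by 0.51 ± 0.13 (adjusted p = 0.0223). No member passed the test of the difference between the lines in this change (limma, 0 of 82 at an adjusted p under 0.05, 5 at an unadjusted p under 0.05), where 1.47% of all genes were called higher and 1.01% lower. Without replicate 1 of the shScram preadipocytes 3 were called higher in shFto (Atp5g2, Ndufb11 and Ndufs4) and 3 lower (Ndufa10, Ndufa11 and Ndufs1), against 8.16% and 8.94% of all genes.

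The 3 genes for the c subunit of the ATP synthase ring, Atp5g1, Atp5g2 and Atp5g3, encode the same mature protein. Their shares within a library do not depend on the scaling. Of their sum, Atp5g1 made up 12.9 and 12.7% in shFto preadipocytes, 8.24 and 7.14% at the MCE stage, then 4.63 and 5.23% after differentiation. In shScram the shares were 5.33 and 16.7%, 7.60 and 7.82% and 5.47 and 5.05%. The share of Atp5g1 thus got smaller at each step in shFto without overlap, and in shScram from the MCE stage on, where the preadipocyte replicates disagreed. Atp5g1 did not pass the test in any of the 8 comparisons, with a fitted SE of 0.88 in those between groups. That SE takes in the shScram preadipocyte replicates that disagreed. From the MCE to the differentiation stage its log2 difference was -0.99 in shScram and -0.81 in shFto, each called in 4 of 21 alternative settings. Reads of Atp5g1 and its annotated copy Gm10039, at 27.4 to 119 TPM, could have been split in the authors' counting.

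The effect of the knockdown was compared at each stage. At the MCE stage 1 member was higher and 5 were lower in shFto, where 10.5% and 7.26% of all genes were, and the members' median log2 difference was -0.14 beside 0.05 for all genes. At the differentiation stage 1 was higher and 11 lower, where 11.9% and 9.31% of all genes were, with medians of -0.04 and 0.03. Without replicate 1 of the shScram preadipocytes, 8 were higher and 20 lower at the MCE stage, against 25.2% and 15.8% of all genes. Without that library 12 were higher and 24 lower at the differentiation stage, against 25.3% and 20.4%. Median-ratio scaling gave 0 higher and 8 lower at the MCE stage, with no share of all genes given for it. Of the 5 lower calls at the MCE stage, 3 (Cox6c, Cox4i1 and Atp5j2) were among the 11 at the differentiation stage. By the libraries alone, 23 members were lower in shFto with no overlap at both later stages, where 18.9% of all genes were, and 8 were higher at both, where 26.5% were. The 8 were Atp5o, Cox5a, Cox6b1, Cox8a, Cycs, Ndufs8, Sdhb and Sdhc.

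**Figure D3:**
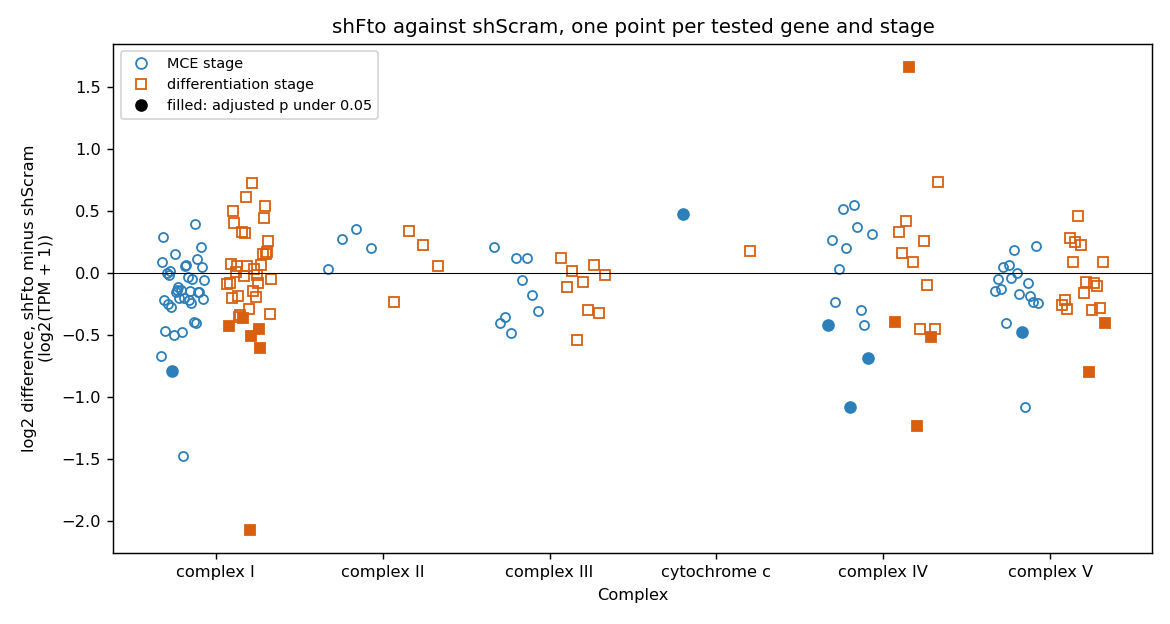
Log2 difference in log2(TPM + 1), shFto minus shScram (y axis), for each tested member at the MCE and differentiation stages (1 point per gene and stage) by complex (x axis), with filled symbols for an adjusted p under 0.05. Most filled points are below 0, with Cox6c near -1.1 and -1.2 in complex IV, Cox6a2 at 1.66 above, and no filled point in complexes II and III.

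In complex I, of 38 genes tested, 1 was lower at the MCE stage and 6 after differentiation, and none was higher. The counts were 2 higher and 9 lower, then 5 higher and 11 lower, without replicate 1 of the shScram preadipocytes. Ndufa6, an accessory subunit of the arm that faces the matrix, was at 206 and 239.6 TPM in shScram against 126 and 130.4 TPM in shFto at the MCE stage (chr15:82350140-82354322, minus strand). The log2 difference was -0.79 ± 0.13 (adjusted p = 0.00371), and at the differentiation stage it was -0.35 ± 0.13 (adjusted p = 0.0918) with 229.9 and 245 TPM against 202 and 170.2 TPM. The groups did not overlap at either stage.

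Ndufs1, the core subunit that holds several iron-sulfur clusters, was at 73.4 and 80.5 TPM in shScram against 54.7 and 57.0 TPM in shFto at the differentiation stage (log2 -0.45 ± 0.11, adjusted p = 0.0192). Ndufb5 was at 108 and 99.4 TPM and 74.2 and 70.5 TPM (log2 -0.51 ± 0.10, adjusted p = 0.00718). Ndufa10 (log2 -0.43 ± 0.11, adjusted p = 0.0287) and Ndufa9 (log2 -0.37 ± 0.11, adjusted p = 0.0435) were also lower. Ndufb4c, one of the annotated pseudogenes, was also called (log2 -2.07 ± 0.46, adjusted p = 0.0126) at levels of 3.40 and 6.29 TPM and 0.380 and 0.316 TPM, and it shares sequence with Ndufb4.

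Complex II has no subunit from the mitochondrial genome. Its 4 genes were not called at the MCE or the differentiation stage, but 2 were higher in shFto preadipocytes. There Sdhb was at 93.6 and 123 TPM in shScram against 161 and 147 TPM in shFto (log2 0.51 ± 0.14, adjusted p = 0.0256) and Sdhc at 26.6 and 45.0 TPM against 59.5 and 56.1 TPM (log2 0.72 ± 0.21, adjusted p = 0.0325), and both calls held without replicate 1 of the shScram preadipocytes (adjusted p = 0.0134 and 0.02). Sdhb, the iron-sulfur subunit, was at 105 and 108 TPM in shScram against 130.2 and 128 TPM in shFto at the MCE stage, and at 96.6 and 93.3 TPM and 121 and 120.2 TPM after differentiation. Sdhc, a membrane anchor, was at 47.4 and 48.1 TPM and 62.4 and 60.6 TPM, and then at 48.7 and 43.7 TPM and 52.1 and 56.4 TPM. Both genes were higher in all shFto libraries of those stages, with log2 differences at the MCE stage of 0.27 ± 0.14 (adjusted p = 0.222) and 0.36 ± 0.21 (adjusted p = 0.293). Without replicate 1 of the shScram preadipocytes both passed the test at both stages, with an adjusted p of 0.00633 and 0.00429 at the MCE stage. Sdha, the flavoprotein, had log2 differences of 0.03 ± 0.11 and -0.23 ± 0.11 at the 2 stages (adjusted p = 0.88 and 0.155), and Sdhd, the other anchor, of 0.21 ± 0.40 and 0.06 ± 0.40 (adjusted p = 0.797 and 0.942).

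No gene of complex III was called at these 2 stages either, of 9 tested. Uqcrb, which helps shape the quinone pocket, was at 200.3 and 217 TPM in shScram against 154 and 143 TPM in shFto at the MCE stage, and at 197 and 201 TPM and 147 and 127 TPM later. The groups were apart, but replicate 1 of the shScram preadipocytes held 631 TPM for this gene and set its SE to 0.38. Without that library Uqcrb passed at both stages (log2 -0.49 and -0.54, adjusted p = 0.00103 and 0.000486). Cyc1, the cytochrome c1 subunit, and Uqcrfs1, the Rieske iron-sulfur protein, had log2 differences at the differentiation stage of 0.12 ± 0.59 (adjusted p = 0.913) and 0.07 ± 0.34 (adjusted p = 0.92). Cycs was the only member higher in shFto at the MCE stage, at 78.3 and 76.5 TPM against 53.0 and 57.8 TPM (log2 0.48 ± 0.13, adjusted p = 0.0396), and at the differentiation stage the difference was 0.18 ± 0.13 (adjusted p = 0.405).

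In complex IV, of 13 genes tested, 3 were lower at the MCE stage, and 1 was higher and 3 lower after differentiation. With that preadipocyte library left out 2 were higher and 5 lower, then 4 higher and 4 lower. Complex IV held the largest difference between the lines among members above 5 TPM that were lower in shFto. Cox6c, a small subunit of cytochrome c oxidase (ENSMUSG00000014313, chr15:35925886-35938246, minus strand), was at 487 and 339 TPM in shScram against 152 and 134 TPM in shFto preadipocytes. At the MCE stage it was at 439 and 462 TPM and 206 and 219.7 TPM, and at the differentiation stage at 383 and 341 TPM and 161 and 146 TPM. Every shFto library was below every shScram library. The log2 differences in stage order were -1.50 ± 0.17, then -1.08 ± 0.17, then -1.23 ± 0.17 (adjusted p = 0.000835, 0.00313 and 0.00128), and it was the only member called lower at all 3 stages. At the MCE and differentiation stages the call held in 21 of 21 alternative settings. The gene overlaps Vps13b on the opposite strand and shares sequence with Cox6c2, and these 2 genes together had 7.48 to 19.0 TPM in any library. No source used here says if reads were counted by strand.

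Cox7c was lower at the MCE stage, with 573 and 569 TPM in shScram against 363 and 347 TPM in shFto (log2 -0.68 ± 0.15, adjusted p = 0.0149), and at the differentiation stage its difference was -0.45 ± 0.15 (adjusted p = 0.0686). Its 2 annotated copies had 7.92 to 56.1 TPM together. Cox4i1, the general form of subunit IV, was at 774 and 857 TPM and 599 and 616 TPM at the MCE stage, then at 789.8 and 775 TPM and 608 and 583 TPM after differentiation. It was called at both (log2 -0.42 ± 0.12 and -0.39 ± 0.12, adjusted p = 0.0371 and 0.0425), in 9 and 8 of 21 alternative settings, and it overlaps Emc8 on the opposite strand. Cox7b was at 181 and 180.3 TPM and 138 and 115 TPM after differentiation (log2 -0.52 ± 0.13, adjusted p = 0.0189).

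Other subunits of complex IV lay on the other side. Cox8a was at 577 and 669.7 TPM in shScram against 777 and 772 TPM in shFto at the MCE stage, and at 526 and 380.2 TPM and 797 and 698 TPM after differentiation. All shFto libraries were above all shScram libraries, but with an SE of 0.51 the differences of 0.32 ± 0.51 and 0.74 ± 0.51 did not pass the test (adjusted p = 0.748 and 0.355). This SE also takes in the shScram preadipocyte replicates, which differ for this gene and are in neither comparison. Cox8a was called in 0 of 21 alternative settings at the MCE stage and in 4 of 21 at the differentiation stage. The ratio of Cox8a (58.5% GC) to Cox6c (46.8% GC) within a library does not depend on the scaling, but it was not corrected for GC content. In preadipocytes it was 0.236 and 1.37 in shScram, where the replicates disagreed, and 5.97 and 5.26 in shFto. At the MCE stage it was 1.31 and 1.45 in shScram and 3.77 and 3.51 in shFto. At the differentiation stage it was 1.37 and 1.12 and 4.95 and 4.79. Cox6c made up 9.77 and 9.78% of the summed complex IV mRNA in shScram and 4.20 and 4.13% in shFto at that stage, while the sums themselves were 3925 and 3480.0 TPM and 3836 and 3534 TPM and overlapped. Cox8a has no overlapping gene in the annotation. Cox6a2 was higher in shFto at the differentiation stage, at 6.26 and 8.27 TPM against 2.08 and 1.18 TPM (log2 1.66 ± 0.39, adjusted p = 0.0172), a small share beside Cox6a1, and it overlaps Itgad on the opposite strand.

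**Figure D4:**
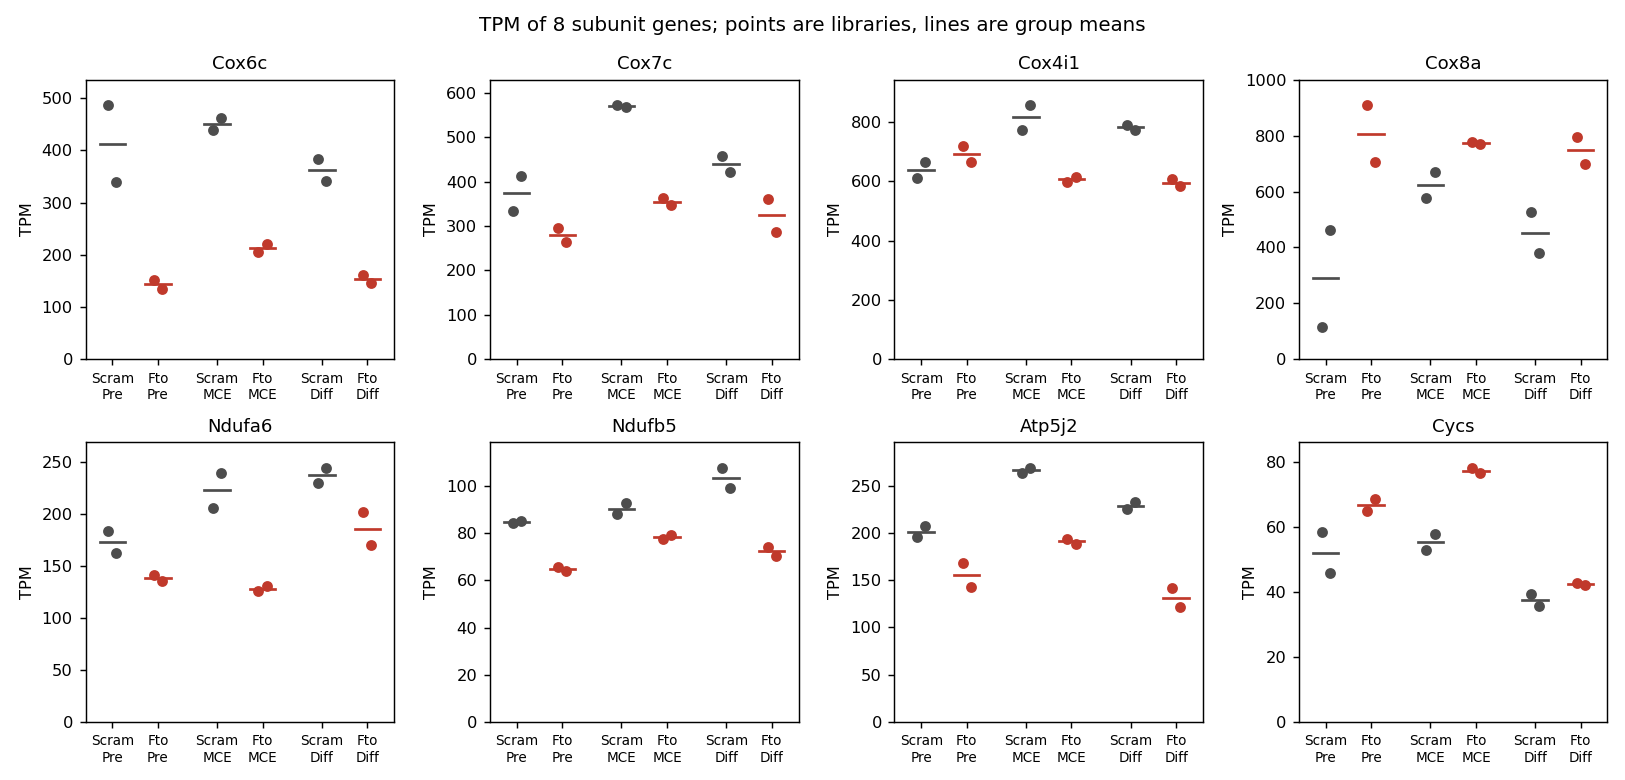
TPM of 8 members (y axes from 0) in each library (points) by line and stage, with a line at each group mean. Cox6c, Cox7c, Ndufa6, Ndufb5 and Atp5j2 are lower in the shFto pair than in the shScram pair throughout, Cox8a is higher in shFto at each stage, and Cycs is lowest at the differentiation stage in both lines.

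In complex V, of 17 genes tested, 1 was lower at the MCE stage and 2 after differentiation. The fit without that preadipocyte library had 1 higher and 3 lower, then 1 higher and 5 lower. Atp5j2 was at 264 and 269 TPM in shScram against 194 and 189 TPM in shFto at the MCE stage, and at 226 and 233 TPM and 141 and 122 TPM after differentiation. The groups were apart at both, with log2 differences of -0.48 ± 0.12 and -0.80 ± 0.12 (adjusted p = 0.0284 and 0.0021), and the second was called in 21 of 21 alternative settings. Its promoter, shown above, holds the YY1 letters. Atp5pb, the b subunit of the peripheral stalk, was at 246 and 258 TPM and 181 and 201 TPM after differentiation (log2 -0.40 ± 0.10, adjusted p = 0.0262). The catalytic Atp5b had log2 differences of -0.05 ± 0.13 and -0.22 ± 0.13 at the 2 stages (adjusted p = 0.846 and 0.281), and Atp5g2 and Atp5g3 of 0.46 ± 0.57 and 0.23 ± 0.41 at the later one (adjusted p = 0.632 and 0.752).

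In preadipocytes 13 members were higher and 6 lower in shFto, where 15.9% and 12.3% of all genes were. This comparison rests on the library that stood apart. Without it 14 were higher and 12 lower, against 16.1% and 12.9% of all genes, and the median log2 difference of the members was 0.07 in place of 0.41. Correction for GC content gave 12 higher and 11 lower, with no share of all genes given for it. Cox8a was at 115 and 464 TPM in shScram against 909.8 and 705 TPM in shFto, a log2 difference of 1.79 ± 0.51 (adjusted p = 0.0329) that was 0.79 without the library and still called (adjusted p = 0.0137). Ndufa3 (log2 1.33 ± 0.43, adjusted p = 0.0497) and Cox6a2 (log2 1.36 ± 0.39, adjusted p = 0.0346) were no longer called without it (adjusted p = 0.123 and 0.103). On the lower side, Uqcrb at -1.16 ± 0.38 (adjusted p = 0.0498) became -0.40, Atp5c1 at -0.59 ± 0.14 (adjusted p = 0.0155) became -0.39, and Cox6c became -1.24, all called. Across the 82 members, the difference between the 2 shScram preadipocyte replicates ran against GC content (Spearman rho -0.45), and that between the lines at this stage ran with it (rho 0.47). Replicate 1 enters both differences, with opposite sign, so the 2 values are not separate observations. At the MCE and differentiation stages rho with GC content was 0.14 and 0.18. Genes of 1 library share its base composition, so these are descriptions.

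The 13 subunits from the mitochondrial genome had a lower summed level in shFto than in shScram at every stage, with no overlap. The sums were 127819 and 64450 TPM in shScram against 42421 and 48190 TPM in shFto preadipocytes, then 55536 and 51151 TPM against 45003 and 44248 TPM (MCE stage), then 62542 and 78020 TPM against 38770 and 39567 TPM after differentiation. As called genes, 9 of the 13 were lower in preadipocytes, where 12.3% of all genes were, and 9 at the differentiation stage, where 9.31% were, and none was higher. At the MCE stage 0 passed limma's test at an adjusted p under 0.05 and 1 at an unadjusted one. In stage order 7, 2 and 13 were lower without replicate 1 of the shScram preadipocytes. The median log2 differences in stage order were -0.93, -0.24 and -0.91, and the first was -0.48 without that library, beside -0.04 for the 82 nuclear-encoded genes at the differentiation stage. mt-Nd2 had the lowest value at that stage at -1.31 ± 0.25 (adjusted p = 0.00634), and mt-Cytb was at -0.96 ± 0.21 (adjusted p = 0.0115).

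The ratio of the mitochondrially encoded to the nuclear-encoded sum was 10.2 and 4.06 in shScram against 2.45 and 3.09 in shFto preadipocytes. At the MCE stage it was 3.11 and 2.57 in shScram and 2.62 and 2.57 in shFto, and the lines overlapped. At the differentiation stage it was 3.90 and 5.32 in shScram and 2.54 and 2.76 in shFto. The adipocyte marker level was also lower in shFto at the MCE stage (379 and 378 TPM against 278 and 290.4 TPM) and at the last stage, but in preadipocytes it was higher in shFto, at 267 and 299 TPM against 185 and 129 TPM. Lpl made up most of the preadipocyte level, at 247 and 281 TPM in shFto against 174 and 112 TPM in shScram. There Adipoq was at 0 in every library, and Fabp4 was at 9.01 and 6.86 TPM against 7.66 and 8.60 TPM. At the MCE stage Lpl was also higher in shFto, against the sum, at 196 and 199 TPM against 92.4 and 77.1 TPM. The part of the adipocyte marker level in these differences was not tested.

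**Figure D5:**
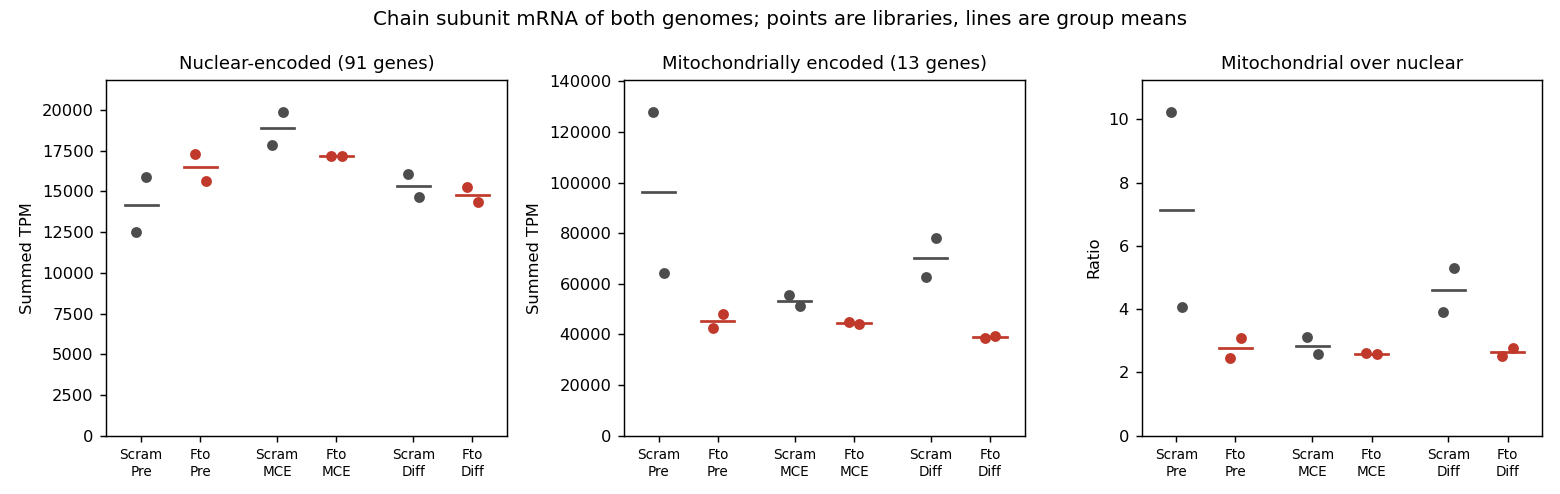
Summed TPM of the 91 nuclear-encoded and of the 13 mitochondrially encoded subunits, and the ratio of the second to the first (y axes from 0), in each library (points) by line and stage with a line at each group mean. At the differentiation stage the ratio is 3.90 and 5.32 in shScram and 2.54 and 2.76 in shFto, and replicate 1 of the shScram preadipocytes is highest at 10.2.

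Genes that work with the chain were counted in the same fit. The shares of all genes given above for the knockdown comparisons, with and without replicate 1 of the shScram preadipocytes, apply to these lists too. Of 50 assembly factors tested, 1 was higher and 1 lower in shFto at the MCE stage, and 2 were higher and 6 lower (12% of the list, beside 9.31% of all genes) at the differentiation stage. Leaving out replicate 1 of the shScram preadipocytes gave 7 higher and 5 lower, then 8 higher and 13 lower. Coa5, a complex IV assembly factor, was higher at both, with log2 differences of 0.95 ± 0.11 and 0.52 ± 0.11 (adjusted p = 0.000703 and 0.012). Cox17, which carries copper to complex IV, was higher at the differentiation stage by 0.79 ± 0.14 (adjusted p = 0.00392). Cox15, needed for heme A, was lower at both stages (-0.45 ± 0.13 and -0.58 ± 0.13, adjusted p = 0.044 and 0.014). Of the complex I factors, Ndufaf2 was lower by -0.65 ± 0.17 (adjusted p = 0.0244), Tmem126b by -0.71 ± 0.18 (adjusted p = 0.024) and Acad9 by -0.40 ± 0.12 (adjusted p = 0.0451). Lrpprc, which stabilises mitochondrial mRNA, was lower by -0.52 ± 0.14 (adjusted p = 0.0271).

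Of 16 biogenesis regulators tested, 0 were called by limma at the MCE stage (2 at an unadjusted p under 0.05) and 1 higher and 1 lower at the differentiation stage, and without replicate 1 of the shScram preadipocytes 4 higher and 1 lower, then 3 higher and 5 lower. Of all genes, 11.9% were called higher and 9.31% lower at the differentiation stage. There Yy1, whose letters were searched in the promoters, was higher by 0.46 ± 0.12 (adjusted p = 0.0253), and the coactivator Ppargc1b was lower by -0.97 ± 0.28 (adjusted p = 0.0379). Nrf1 and Tfam were not called, with differences of 0.25 ± 0.19 and -0.01 ± 0.12 (adjusted p = 0.388 and 0.975). Of 16 genes of the TCA cycle, 1 was higher and 4 lower at the differentiation stage, where 11.9% and 9.31% of all genes were. Idh3a was lowest at -1.0 ± 0.14 (adjusted p = 0.00111) and Ogdh was higher by 0.38 ± 0.11 (adjusted p = 0.0361). Without the same library 3 TCA genes were higher and 9 lower. Of 14 hypoxia targets, 7 were higher and 0 lower at the MCE stage, where 10.5% and 7.26% of all genes were, and 7 were higher and 2 lower at the differentiation stage, where 11.9% and 9.31% were. Without that library 8 were higher and 2 lower, then 9 higher and 2 lower. Pdk1, which restrains entry of pyruvate into the TCA cycle, was higher at both, by 1.13 ± 0.13 and 0.93 ± 0.13 (adjusted p = 0.00059 and 0.00131). Of the 10 thermogenic genes, 3 were tested, and Dio2, the deiodinase that makes active thyroid hormone, was higher in shFto at both stages, by 2.90 ± 0.16 and 3.96 ± 0.16 (adjusted p = 1.44e-05 and 1.29e-06).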

How the data were processed

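Fragmented input RNA of 12 libraries was analysed, 2 for each line at each of 3 stages. According to the paper's methods and the submitters' processing notes, the authors used Trim Galore 0.6.5 for trimming, HISAT2 2.1.0 for alignment to GRCm38 and StringTie 2.1.4 for quantification, and the deposited table holds TPM. Their own lists of changed genes came from DESeq2 1.30.1 and were not used. Depth is unknown because TPM does not keep it, and the number of libraries limits the precision. The libraries had 20853 to 24018 genes above 0, and no 2 libraries held identical values.

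From these values log2(TPM + 1) was tested with limma 3.58.1 in R 4.3.3 (a mean per group, eBayes with trend, 6 residual degrees of freedom before moderation, two-sided, Benjamini-Hochberg adjustment over 15968 genes with 1 TPM or more in at least 2 of 12 libraries). Fold changes are differences on that scale, which understates the change of low genes. Every adjusted p comes from this fit, errors of log2 differences are standard errors, and a gene was called at an adjusted p under 0.05. The fit was tested on simulated data, with a log2 change of 2 added to 200 of 15968 genes. It found 168 of the 200, with 12 false calls. Its power for smaller changes was not measured. The members, gene lists and motifs were chosen with earlier results of these data known. Genes were named where they had the 3 highest or 3 lowest log2 differences among called members with a mean of 5 TPM or more, or belonged to complex II, to the isoform families, or to Cyc1, Cycs, Uqcrfs1 and the highest member of each complex. Others named were counts of 5 or fewer or were chosen after their values were seen.

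GENCODE release M21 gave coordinates on GRCm38 for 99.4% of the identifiers. Of the members, 41 overlap another gene, 32 of them on the opposite strand, and 39 share 100 or more 31-base words with another annotated gene, so their values could include reads of those genes. Of the 51 assembly factors listed, 50 were in the table. Alternatives were another pseudocount (0.1), other filters, median-ratio scaling, TPM without mitochondrially encoded genes, only the libraries compared, a replicate block and leaving out each library. A GC correction and a fit without preadipocytes were added after seeing the data. Other steps used Python 3.11.15 with pandas 2.3.3, scipy 1.17.1 and matplotlib 3.10.9. Rhein-treated and immunoprecipitated libraries were not used here. Of the tested members, 1 stayed in the fit, sums and counts but is not reported by name here.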

Additional observations from a re-analysis of the deposited data

Results flagged for a closer look

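For 9 of the members reported here the 2 lines or the 2 later stages went opposite ways in every library, while the test of that difference (limma, shFto change from the MCE to the differentiation stage minus that of shScram) did not pass for any of them. The share of all tested genes with such a pattern is not given here, so the count of 9 cannot be set beside it. In Ndufa10 both the late change and the difference between the lines were opposite (log2 -0.52, adjusted p = 0.156). Its values went in shScram from 70.6 and 64.8 TPM to 81.8 and 95.8 TPM and in shFto from 72.8 and 71.6 TPM to 63.8 and 67.4 TPM. The late change alone was opposite in Ndufs1 (-0.41, adjusted p = 0.253), Ndufb5 (-0.31, adjusted p = 0.350), Sdha (-0.27, adjusted p = 0.456), Ndufa9 (-0.21, adjusted p = 0.605) and Atp5g2 (0.50, adjusted p = 0.875). Except Atp5g2, these were higher in shScram and lower in shFto at the later stage.

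The difference between the lines was opposite at the 2 stages in Ndufs4 (0.55, adjusted p = 0.194), Ndufa11 (-0.37, adjusted p = 0.442) and Ndufb11 (0.43, adjusted p = 0.853). Ndufs4 was at 49.9 and 58.2 TPM in shScram against 40.5 and 40.6 TPM in shFto at the MCE stage, and later at 52.0 and 52.2 TPM and 58.7 and 57.3 TPM. With 2 libraries a group, libraries can fall apart in this way without a difference that passes the test. The spread in that test also takes in the shScram preadipocyte libraries, which are in none of these differences. Some of these genes were called in the fit without replicate 1 of that group, as named above.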

How the results depend on the processing

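Counts of members called moved with the fit more than directions did. Shares of all genes are not given for most of the fits below, so these counts cannot be set beside them. The shares of all genes moved too. Without replicate 1 of the shScram preadipocytes, the share called lower in shFto at the MCE stage went from 7.26% to 15.8%. Leaving out 1 library at a time gave 1 to 61 calls for shFto against shScram in preadipocytes, 2 to 28 in MCE-stage cells and 2 to 36 after differentiation, 4 to 62 for the first step in shScram and 4 to 23 in shFto, 0 to 44 for the late step in shScram and 3 to 30 in shFto, and 0 to 6 for the difference between the lines. The highest values came from fits without 1 of the shScram preadipocyte libraries. In the same order of comparisons, the main counts were 19, 6, 12, 27, 7, 8, 7 and 0. The replicate block gave 17, 5, 9, 21, 6, 6, 7 and 0 calls. The correlations of same-numbered replicate differences were -0.29 to 0.17, so the numbers were not taken as pairs. With only the libraries compared, the counts were 0 and 0 for preadipocytes and the first step in shScram, 28 and 33 for the later knockdown comparisons, 27 for the first step in shFto, 24 and 35 for the late step, and 6 for the difference. Without the preadipocyte libraries they were 28, 36, 50, 29 and 6. Median-ratio scaling gave 46 and 12 for the first step and 24 and 18 for the late step, and GC correction gave 51 and 12, then 30 and 26, and 10 for shFto at the MCE stage. Without a filter, 8 members were called in preadipocytes and 11 in the first step in shScram. Of the 1748 values of called members under the alternatives, 1211 stayed called, 535 did not, and 2 changed sign, Atp5pb (0.17) and Ndufa4l2 (-0.094) in preadipocytes with GC correction. The causes were not tested, beyond the fewer libraries that some fits hold.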
